A study of Mus musculus with 12 samples.

Results

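The cytochrome P450 genes of mouse colon were followed through injury with dextran sulfate sodium (DSS), a polymer that damages the colonic epithelium when given in drinking water, and through supplementation with the amino acid L-arginine (L-Arg). Members were all genes of the array whose symbol has the form Cyp, a family number, a subfamily letter and a gene number, each read from a probe set annotated to 1 gene only. This gave 82 of 19938 genes, in 36 subfamilies of 14 families. RNA came from colon tissue of wild-type male C57BL/6 mice labelled as aged 8 weeks and 3 days. There were 3 mice in each of 4 groups and 1 array per mouse. The study's methods combine a proximal and a distal sample of each colon for RNA, while its array legend names a piece of colon. The share of each region on an array is not given. DSS+L-Arg mice drank 4% DSS for 6 days and then 1% L-Arg for 4 days, DSS mice drank 4% DSS for 6 days and then water for 4 days, control+L-Arg mice drank water for 6 days and then 1% L-Arg for 4 days, and control mice drank water throughout. All were sacrificed on day 10 and the DSS values are thus from 4 days after DSS was withdrawn.

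Cytochromes P450 are heme enzymes that insert oxygen into small molecules, using electrons passed on by P450 reductase in the endoplasmic reticulum or by ferredoxin in mitochondria. Families 1 to 3 are known mainly for drugs, dietary chemicals and pollutants, although several Cyp2 enzymes also oxidize arachidonic acid. Family 4 enzymes oxidize the end of fatty acids and of leukotriene B4, and most of the higher-numbered families act on sterols, bile acids, steroid hormones, retinoids or vitamin D. In the intestine they act on absorbed chemicals in enterocytes and on lipid mediators in the epithelium and in leukocytes.

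Every value below is a log2 signal, and a difference of 1 on this scale is a doubling. A member was counted as expressed when its mean over the 12 arrays lay above the median of that mean over all genes, 7.05. By this rule 22 members in 12 subfamilies were expressed (26.8%, against 50% of all genes, which the median sets), and 60 were not. Of these 22, 16 also lay above the 75th percentile of all genes. Just inside the limit was Cyp2d10, with a mean of 7.05, and just outside it was Cyp2d13, with 6.97. Cyp2d13 is annotated as a transcribed pseudogene, and the naming rule kept it among the members. Signals of different genes depend on their probes as well as on their RNA, so that no order of abundance was drawn from them.

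By subfamily, the expressed members were distributed as follows. In the Cyp2c subfamily 3 of 13 members were expressed, Cyp2c55, Cyp2c65 and Cyp2c66, and these are direct neighbours on chromosome 19, next to Cyp2c29, which was not expressed. In Cyp2d, on chromosome 15, 5 of 9 were expressed (Cyp2d9, Cyp2d10, Cyp2d22, Cyp2d26 and Cyp2d34), and in Cyp4f 4 of 8 (Cyp4f13, Cyp4f14, Cyp4f16 and Cyp4f40), all of them on chromosome 17. Cyp3a held 2 of 6, Cyp3a13 and Cyp3a25, and Cyp2j held 1 of 6, Cyp2j6. Cyp2f2, Cyp2s1, Cyp2w1, Cyp4b1, Cyp20a1, Cyp27a1 and Cyp39a1 are each the only member of their subfamily measured here. No member of Cyp2b (5 measured), Cyp4a (3 measured), Cyp1a (2 measured) or Cyp26 (3 measured) passed the limit. Cyp1a1 and Cyp1b1, which dioxin-like compounds induce through the aryl hydrocarbon receptor, had means at the 17.8th and 20.1st percentiles of all genes, and Cyp11a1, which begins steroid hormone synthesis, was at the 8.11th.

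Some arrays stood apart in ways that touch these genes. Markers of colonocytes were steady, with all 20 measured and their median within −0.11 to 0.03 of the control mean on every array, and their median log2 signal was between 12.27 and 12.78; of them Car4 fell in DSS against control mice (−0.58, SE 0.10, limma adjusted p = 0.011). Tuft cell markers (7 of 9 measured) had a median difference from control of −0.65 in DSS+L-Arg and −0.88 in DSS mice, where 6 fell and 1 rose. The medians were −0.09 and −0.40 for goblet cell markers (8 of 9 measured; Clca1 fell in DSS mice) and −0.80 and −0.92 for smooth muscle markers (10 of 10 measured, 0 called by limma in either, with 2 and 5 lower at an unadjusted p under 0.05). On single arrays the median log2 signal of tuft cell markers was 6.49 to 6.84 in DSS+L-Arg, 6.15 to 6.85 in DSS, 7.06 to 7.70 in control+L-Arg and 7.11 to 7.64 in control mice, and that of smooth muscle markers 9.01 to 9.94, 8.75 to 9.45, 9.55 to 11.43 and 9.78 to 11.16 in the same order of groups. For goblet cell markers it was 13.10 to 13.20, 12.16 to 13.10, 13.25 to 13.37 and 13.23 to 13.35. The part of these cell types in the lower P450 values was not tested. Fits with the smooth muscle or Hox median as a covariate are given below. The smooth muscle median was itself lower in DSS than in control mice, so such a fit cannot separate muscle content from DSS. Posterior Hox genes, whose level is higher toward the distal end of the gut, were uneven among mice of 1 group: with 9 of 9 measured, their median relative to the control mean was 0.33, −0.98 and −0.99 in DSS+L-Arg mice 1 to 3, −0.86, −0.57 and −0.13 in DSS mice, 0.82, −0.70 and 0.39 in control+L-Arg mice, and 0.33, −1.03 and 0.48 in control mice. The array of control mouse 2 also carried transcripts of the male accessory glands, a tissue other than colon, at a median 3.11 above the control mean, while the other 11 arrays lay between −1.72 and −0.94. Neutrophil markers (14 of 14 measured) had a median log2 signal of 6.23 to 6.36 in DSS+L-Arg mice, 7.09 to 10.04 in DSS mice, 5.86 to 6.11 in control+L-Arg mice and 5.73 to 6.15 in control mice, with DSS mouse 3 the highest. No marker had a value of 0. In a piece of tissue, fewer cells of a type and less RNA per cell cannot be told apart.

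DSS injury after 4 days on water was examined first, by setting DSS mice against control mice. At an adjusted p under 0.05, 2 members fell, Cyp4f16 and Cyp2r1, and 1 rose, Cyp7b1. Among all genes, 2.23% were called lower and 1.8% higher in this comparison, so the members' share of calls was close to that of the array as a whole. With limma's unadjusted p under 0.05, 12 members were lower and 5 higher (14.6% and 6.10% of members, against 11.6% and 7.96% of all genes). By the limits of the study's methods, an unadjusted p under 0.01 and a fold change over 2, 3 members were lower (Cyp2d22, Cyp2f2 and Cyp2r1) and 0 higher, where 0.813% of all genes were lower and 1.32% higher.

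Cyp4f16 belongs to the subfamily that hydroxylates leukotrienes and long-chain fatty acids. Its log2 signal was 9.28, 9.25 and 9.31 in DSS+L-Arg mice, 9.10, 8.98 and 9.33 in DSS mice, 9.88, 9.89 and 9.61 in control+L-Arg mice, and 10.20, 10.09 and 9.96 in control mice. All 6 mice given DSS lay below all 6 mice that were not, and control+L-Arg mice lay below control mice. The DSS mean was lower than the control mean by a log2 fold change of −0.95 (SE 0.11, limma adjusted p = 0.0019). DSS+L-Arg mice were also lower than control mice (−0.80, SE 0.11, limma adjusted p = 0.038), a call lost without any single control, control+L-Arg or DSS+L-Arg mouse (limma adjusted p of 0.051 to 0.17). The call in DSS against control mice held without each of the 12 mice in turn (limma adjusted p of 0.0013 to 0.013). Within the L-Arg mice, DSS+L-Arg against control+L-Arg, the difference was −0.51 (SE 0.11) and missed the threshold (limma adjusted p = 0.090).

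Cyp2r1 is a vitamin D hydroxylase that makes the circulating storage form of the vitamin. Its mean was below the limit for expression, at the 25.1st percentile. It read 5.74, 5.24 and 4.92 in DSS+L-Arg mice, 5.19, 4.93 and 5.22 in DSS mice, 6.23, 5.68 and 6.02 in control+L-Arg mice, and 6.17, 6.03 and 6.26 in control mice. The DSS mice were tightly grouped and did not overlap the control mice. The log2 fold change was −1.04 in DSS against control mice (SE 0.20, limma adjusted p = 0.015) and −0.86 in DSS+L-Arg against control mice (SE 0.20, limma adjusted p = 0.14). DSS+L-Arg mouse 1 overlapped the control+L-Arg group, and mice 2 and 3 did not. The call in DSS against control was lost without control mouse 1 (limma adjusted p = 0.061) or control mouse 3 (limma adjusted p = 0.076). It was also lost with the smooth muscle median of each array as a covariate, an alternative chosen after the data were seen (−0.95, SE 0.24, limma adjusted p = 0.075). Cyp4f16 was then the only member called lower. That median was lower in every DSS mouse than in every control mouse, so the lost call is no test of muscle content.

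Cyp7b1 hydroxylates oxysterols and some steroids, and takes part in bile acid synthesis by the alternative route in liver. Its level was low, at the 15.0th percentile. It read 4.81, 5.23 and 5.10 in DSS+L-Arg mice, 5.28, 5.71 and 5.33 in DSS mice, 4.82, 4.81 and 5.08 in control+L-Arg mice, and 4.79, 4.48 and 4.91 in control mice. Every DSS mouse was above every mouse of the other 3 groups. The increase in DSS against control mice was 0.71 (SE 0.16, limma adjusted p = 0.031), and in DSS+L-Arg against control mice the difference was 0.32 (SE 0.16, limma adjusted p = 0.43). The call did not hold without any single control mouse (limma adjusted p of 0.062 to 0.10), without DSS mouse 2 (0.092) or without DSS+L-Arg mouse 3 (0.050). Monocyte and macrophage markers had a median log2 signal of 7.34 to 7.60 in DSS+L-Arg mice, 8.24 to 9.35 in DSS mice, 7.10 to 7.67 in control+L-Arg mice and 7.07 to 7.25 in control mice (16 of 16 measured, 10 called higher and 0 lower in DSS against control). Their part in the Cyp7b1 values was not tested.

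**Figure D1:**
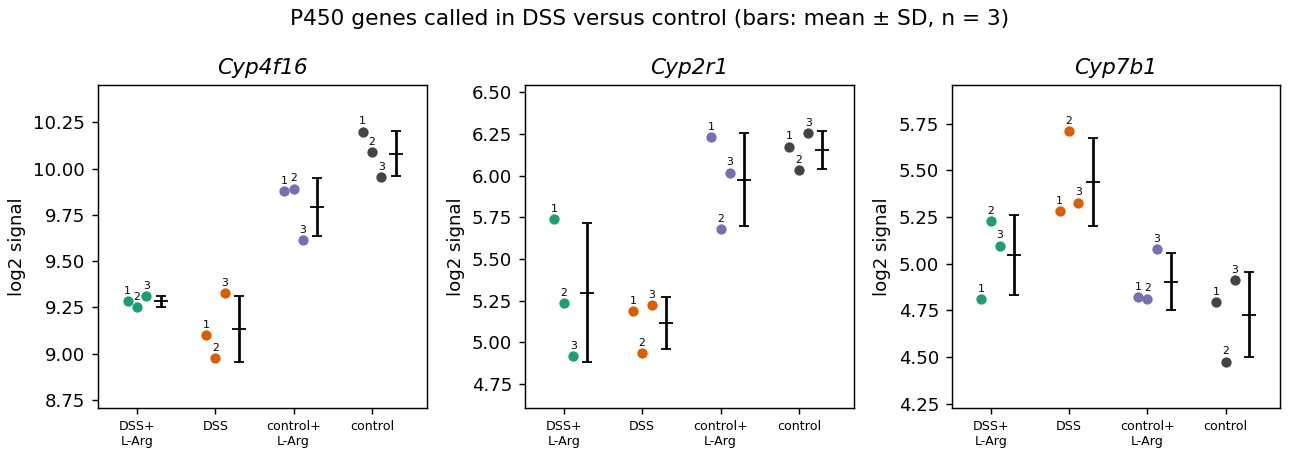
Log2 signal (y axis) of Cyp4f16, Cyp2r1 and Cyp7b1 in the DSS+L-Arg, DSS, control+L-Arg and control groups (x axis). Numbered points are mice and bars are the mean ± SD of 3 mice. The 3 DSS mice sit below all control mice for Cyp4f16 and Cyp2r1 and above all control mice for Cyp7b1.

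The promoters of the genes that fell are shown, and those of a pair that varied together along the Hox values outside the DSS group. They are given as RefSeq has them on the GRCm38.p6 build, from 250 bases before to 50 bases after the annotated start. The motifs were searched on both strands, GCGTG, the core recognized by the aryl hydrocarbon receptor, and TTTATNG, a core recognized by posterior Hox proteins; the motifs can share a G at their ends. Capitals mark a match, and CACGC is GCGTG on the other strand. The Cyp4f16 window (chr17:32536307-32536606, plus strand) held 1 GCGTG match, and so did the Cyp2r1 window (chr7:114562923-114563222, minus strand), which also had 22 CpG pairs and 64.3% G and C.
Cyp4f16: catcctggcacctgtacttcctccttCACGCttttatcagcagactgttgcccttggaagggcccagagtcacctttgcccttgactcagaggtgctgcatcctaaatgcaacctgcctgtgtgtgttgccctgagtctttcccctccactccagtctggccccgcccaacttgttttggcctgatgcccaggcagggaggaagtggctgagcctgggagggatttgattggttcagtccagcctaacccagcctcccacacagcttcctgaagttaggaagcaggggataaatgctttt
Cyp2r1: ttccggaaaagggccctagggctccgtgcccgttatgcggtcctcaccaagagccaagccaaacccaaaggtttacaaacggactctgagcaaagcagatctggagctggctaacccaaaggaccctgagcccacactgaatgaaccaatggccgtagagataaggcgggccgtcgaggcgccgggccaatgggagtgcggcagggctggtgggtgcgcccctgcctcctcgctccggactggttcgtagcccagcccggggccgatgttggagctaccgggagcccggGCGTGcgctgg
The Cyp2f2 window (chr7:27119705-27120004, plus strand) held neither motif and no CpG, and the Cyp2c68 window (chr19:39741052-39741351, minus strand) held 1 GCGTG match and 32.3% G and C.
Cyp2f2: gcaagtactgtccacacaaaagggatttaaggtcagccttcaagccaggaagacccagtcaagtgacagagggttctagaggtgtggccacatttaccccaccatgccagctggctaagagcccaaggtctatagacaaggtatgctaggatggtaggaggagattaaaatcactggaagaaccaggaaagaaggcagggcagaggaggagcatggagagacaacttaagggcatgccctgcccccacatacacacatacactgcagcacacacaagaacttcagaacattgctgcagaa
Cyp2c68: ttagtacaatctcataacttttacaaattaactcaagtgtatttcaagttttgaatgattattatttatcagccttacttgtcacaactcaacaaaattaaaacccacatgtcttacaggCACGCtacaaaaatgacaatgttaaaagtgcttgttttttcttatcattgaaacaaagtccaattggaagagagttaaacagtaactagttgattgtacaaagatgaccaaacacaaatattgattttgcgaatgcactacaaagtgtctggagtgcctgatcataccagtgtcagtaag
GCGTG was present in 32.5% of all 27025 promoters of this length, in 15 of the 63 members with an entry, and in 4 of 19 expressed members. TTTATNG was present in 11.3% of all promoters, in 9 of 63 members, and in 2 of 19 expressed members. A match is a run of letters, with no measure of binding. Cyp7b1 is named only.

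Across the 22 expressed members, 15 had a lower mean in DSS than in control mice (68.2%, against 57.2% of expressed genes), with a median log2 fold change of −0.17, against −0.04 over all expressed genes. In 6 of the 22 every DSS mouse was below every control mouse (Cyp2d22, Cyp2f2, Cyp4b1, Cyp4f13, Cyp4f16 and Cyp39a1), where 18.9% of all expressed genes did so. In 3 every DSS mouse was above every control mouse (Cyp2c66, Cyp2j6 and Cyp3a13), where 10.7% of expressed genes did so. Of these 9 members, Cyp4f16 alone passed the test.

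**Figure D2:**
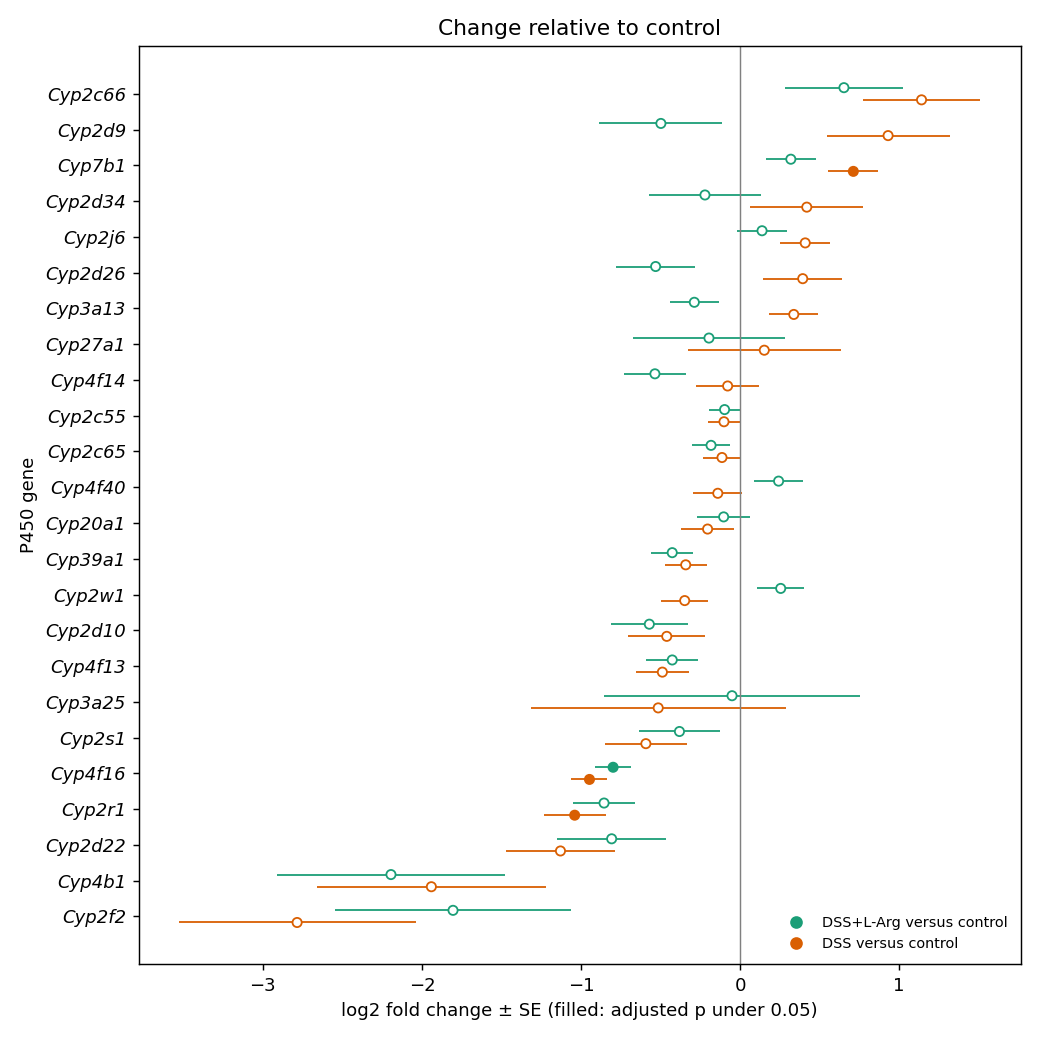
Log2 fold change with its SE (x axis) of the 22 expressed members and of Cyp2r1 and Cyp7b1 (y axis), in DSS+L-Arg against control mice and in DSS against control mice. Filled points have an adjusted p under 0.05. Cyp4f16 is filled in both comparisons, Cyp2r1 and Cyp7b1 in DSS against control only.

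The Cyp2c members differed from each other. Cyp2c55, an enterocyte enzyme that hydroxylates arachidonic acid, read 13.45, 13.28 and 13.34 in DSS+L-Arg mice, 13.50, 13.43 and 13.14 in DSS mice, 13.52, 13.53 and 13.54 in control+L-Arg mice, and 13.39, 13.51 and 13.47 in control mice. It had the smallest within-group SD of the 22 expressed members, 0.11, and its mean lay at the 99.8th percentile of all genes. The difference in DSS against control mice was −0.10 (SE 0.10, limma adjusted p = 0.65). For its neighbour Cyp2c65, at the 99.0th percentile, that difference was −0.11 (SE 0.12, limma adjusted p = 0.67), and its 12 values ran between 12.26 and 12.74. Whether signals this high still follow the amount of RNA was not tested. Cyp2c66, the third of the neighbours, was different in its spread: it read 9.53, 9.43 and 9.84 in DSS+L-Arg mice, 9.04, 10.57 and 10.66 in DSS mice, 8.40, 9.20 and 8.25 in control+L-Arg mice, and 8.97, 8.99 and 8.88 in control mice. All 6 mice that drank DSS were above all control mice, by a wide margin in DSS mice 2 and 3 and narrowly in mouse 1. Neither the difference in DSS against control mice (1.14, SE 0.37, limma adjusted p = 0.11) nor that in DSS+L-Arg against control mice (0.65, SE 0.37) passed the test. Leaving out single mice, the difference in DSS against control mice ranged from 0.86 to 1.66 (limma adjusted p of 0.0034 to 0.29). The largest value was without DSS mouse 1, the DSS mouse nearest to control, and no other single omission gave a call.

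In the Cyp4f subfamily, the lower values of Cyp4f16 were shared in part by Cyp4f13, with 10.65, 11.05 and 11.10 in DSS+L-Arg mice, 11.06, 10.91 and 10.64 in DSS mice, 11.06, 11.39 and 10.82 in control+L-Arg mice, and 11.28, 11.44 and 11.37 in control mice. Both groups given DSS lay below the control mice and overlapped the control+L-Arg mice. The log2 fold changes were −0.43 in DSS+L-Arg (SE 0.16) and −0.49 in DSS mice (SE 0.16, limma adjusted p = 0.12), each against control. Cyp4f14, a leukotriene B4 hydroxylase in mouse, read 10.62, 10.98 and 10.99 in DSS+L-Arg mice, 11.51, 10.99 and 11.47 in DSS mice, 11.21, 11.63 and 10.83 in control+L-Arg mice, and 11.36, 11.50 and 11.35 in control mice. Only its DSS+L-Arg values were all below control (−0.54, SE 0.20, limma adjusted p = 0.31). Cyp4f40 differed by 0.38 in DSS+L-Arg against DSS mice (SE 0.15, limma adjusted p = 0.32), with values between 10.58 and 11.33 over all mice.

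Cyp4f18, the leukotriene B4 hydroxylase of mouse neutrophils, was not expressed by the limit used. It read 6.48, 6.10 and 6.50 in DSS+L-Arg mice, 6.99, 6.47 and 8.30 in DSS mice, 6.68, 6.39 and 6.47 in control+L-Arg mice, and 6.23, 6.46 and 6.33 in control mice. DSS mouse 3 stood apart from the other 11, and the same mouse had the highest neutrophil marker median, 3.91 above the control mean against 1.86 and 1.63 in DSS mice 1 and 2. The difference in DSS against control mice was 0.91 (SE 0.34, limma adjusted p = 0.17) and was 0.39 without that mouse (limma adjusted p = 0.23). Without DSS mouse 2 it was 1.31 and called (limma adjusted p = 0.044). The part of neutrophil content in it was not tested.

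The Cyp2d genes, of which Cyp2d22 is often compared with the human drug-metabolizing CYP2D6, did not share a direction. Cyp2d22 read 9.74, 10.93 and 10.44 in DSS+L-Arg mice, 10.61, 10.25 and 9.28 in DSS mice, 10.92, 11.26 and 10.76 in control+L-Arg mice, and 11.29, 11.35 and 10.89 in control mice. DSS mice were all below control mice (−1.13, SE 0.34, limma adjusted p = 0.089; −1.41 and 0.037 without DSS mouse 1, −0.74 and 0.19 without DSS mouse 3), and DSS+L-Arg mouse 2 overlapped them (−0.81, SE 0.34, limma adjusted p = 0.37). Cyp2d9 read 7.12, 6.40 and 7.01 in DSS+L-Arg mice, 7.30, 8.27 and 9.25 in DSS mice, 7.57, 6.98 and 7.07 in control+L-Arg mice, and 7.50, 7.12 and 7.41 in control mice. DSS mice 2 and 3 were the highest of the 12 and DSS mouse 1 lay among the control mice, and the difference from control (0.93, SE 0.39, limma adjusted p = 0.21) did not pass the test. It was 1.41 without DSS mouse 1 (limma adjusted p = 0.021) and 0.44 without DSS mouse 3 (limma adjusted p = 0.46). Cyp2d26 values were 10.62, 10.97 and 10.99 in DSS+L-Arg mice, 11.75, 11.32 and 12.29 in DSS mice, 11.32, 11.47 and 10.60 in control+L-Arg mice, and 11.37, 11.39 and 11.41 in control mice. The control mice were nearly equal, and the lowest values were those of DSS+L-Arg mouse 1 and control+L-Arg mouse 3. Cyp2d10 read between 6.43 and 7.60 over all mice, and Cyp2d34 between 8.53 and 10.25.

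Apart from Cyp2r1 and Cyp7b1, described above, single-member subfamilies with known roles outside drug metabolism had small or uneven differences. Cyp27a1, a mitochondrial sterol hydroxylase found in macrophages as well as in liver, read 8.89, 8.40 and 8.74 in DSS+L-Arg mice, 9.47, 10.10 and 7.52 in DSS mice, 9.13, 8.95 and 8.85 in control+L-Arg mice, and 8.80, 8.75 and 9.08 in control mice. DSS mice held both the highest and the lowest values of the 12, and the mean difference from control was 0.15 (SE 0.48, limma adjusted p = 0.91). Without DSS mouse 3 it was 0.91 (limma adjusted p = 0.034), whereas without DSS mouse 2 it was −0.38 (limma adjusted p = 0.73). Cyp39a1, which hydroxylates a brain-derived oxysterol, read 8.48, 8.83 and 8.81 in DSS+L-Arg mice, 8.52, 8.90 and 8.95 in DSS mice, 9.23, 9.04 and 9.07 in control+L-Arg mice, and 9.21, 9.05 and 9.13 in control mice. All 6 mice that drank DSS were below all 6 that did not, as for Cyp4f16, but the differences were smaller (−0.43, SE 0.13, in DSS+L-Arg and −0.34, SE 0.13, in DSS mice, each against control) and were not called (limma adjusted p of 0.25 and 0.18). Cyp27b1, which makes active vitamin D, read between 5.47 and 5.77 over the 12 mice, and Cyp26b1, which degrades retinoic acid, between 6.22 and 6.89.

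Among the extrahepatic enzymes of family 2, Cyp2s1 was lower by a log2 fold change of −0.59 in DSS than in control mice (SE 0.26, limma adjusted p = 0.23), with 12.03, 11.34 and 10.75 in DSS mice and 11.96, 12.02 and 11.92 in control mice. DSS mouse 1 lay above every control mouse, and the other two well below. The difference was −0.92 and called without DSS mouse 1 (limma adjusted p = 0.021), and −0.28 without DSS mouse 3 (limma adjusted p = 0.51). Cyp2j6, an intestinal enzyme, read 10.12, 10.44 and 10.53 in DSS mice and 9.97, 10.07 and 9.82 in control mice, higher by 0.41 (SE 0.16, limma adjusted p = 0.17). Cyp3a13, the Cyp3a gene known from mouse intestine, read 12.07, 12.12 and 11.64 in DSS mice and 11.56, 11.62 and 11.63 in control mice (0.34, SE 0.15). Cyp20a1, whose substrate is not known, stayed between 7.91 and 8.52 in all mice.

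**Figure D3:**
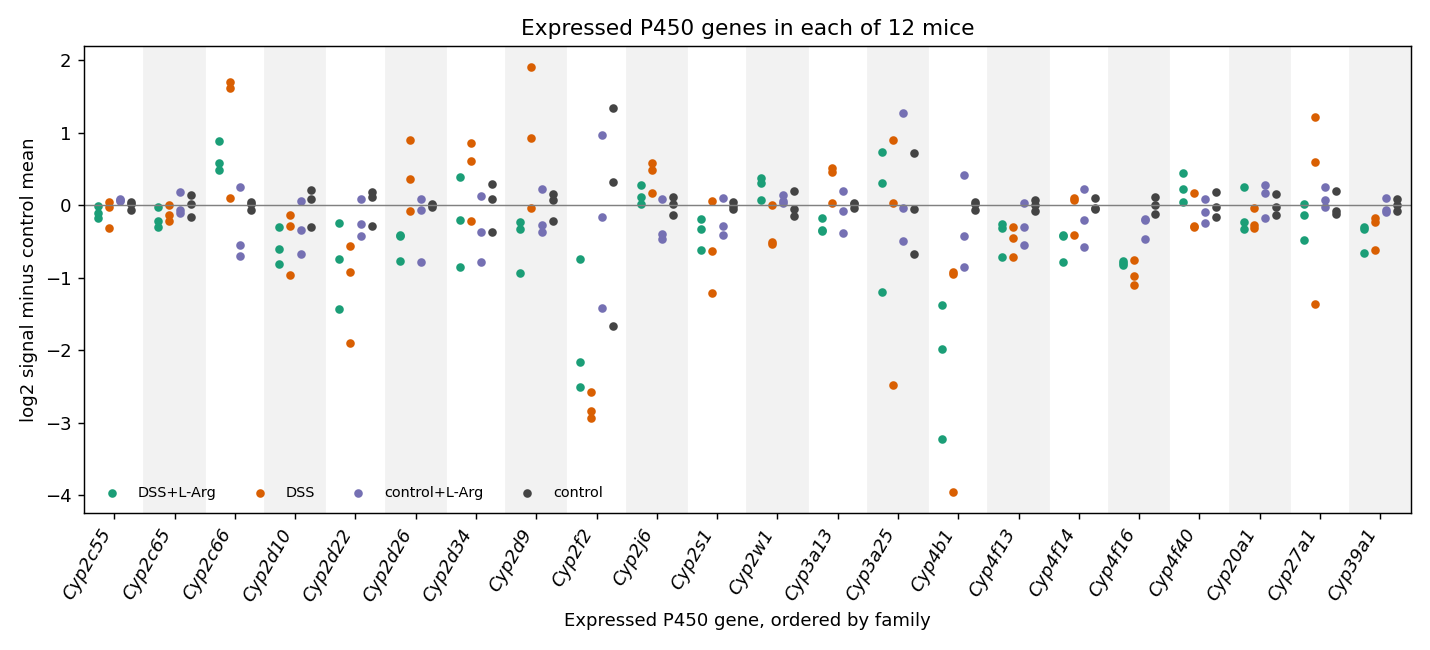
Log2 signal minus the control mean (y axis) of each of the 22 expressed members (x axis) in 12 mice, coloured by group. Cyp2c55 and Cyp2c65 stay close to 0 in every mouse, while Cyp2f2, Cyp4b1 and Cyp3a25 are spread over more than 3 units.

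The expressed P450 genes differed more between mice of 1 group than most genes did. Their median within-group SD was 0.31, against 0.17 over all expressed genes, and 19 of 22 lay above that median. Of the 22, 8 were above the 90th percentile, 0.37, with Cyp3a25 (1.17), Cyp2f2 (1.08) and Cyp4b1 (1.04) the most variable.

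Cyp2f2, known from the airway, where it activates naphthalene, read 8.61, 7.18 and 6.85 in DSS+L-Arg mice, 6.51, 6.77 and 6.41 in DSS mice, 10.33, 7.94 and 9.19 in control+L-Arg mice, and 10.69, 7.68 and 9.67 in control mice. DSS mice were all below control mice, by a log2 fold change of −2.78 (SE 0.74, limma adjusted p = 0.060). Leaving out single mice, this ranged from −3.62 to −2.11 (limma adjusted p of 0.022 to 0.19). The value of −3.62 was without control mouse 2, the one with accessory gland transcripts. That mouse was the control nearest to the DSS mice, so its removal had to widen the difference, and no other single omission gave a call. In DSS+L-Arg against control mice the difference was −1.80 (SE 0.74, limma adjusted p = 0.36). Cyp2c68 was arranged alike: 8.00, 5.35 and 5.18 in DSS+L-Arg mice, 5.50, 5.65 and 5.14 in DSS mice, 8.996, 6.49 and 8.00 in control+L-Arg mice, and 8.67, 6.41 and 8.29 in control mice, with a difference of −2.36 in DSS against control (SE 0.81, limma adjusted p = 0.13). Cyp2d12 read 6.34, 5.52 and 6.16 in DSS+L-Arg mice, 6.44, 6.92 and 7.29 in DSS mice, 7.93, 6.29 and 7.45 in control+L-Arg mice, and 8.46, 6.23 and 7.79 in control mice. In all 3 genes mouse 2 was the lowest of the control and of the control+L-Arg group, and mouse 1 was the highest of both and of the DSS+L-Arg group.

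The same mice were low and high in posterior Hox genes, except that control mouse 3 was above control mouse 1 there. In the DSS group the order differed: mouse 3, the highest in Hox genes, was the highest in Cyp2d12 but the lowest in Cyp2f2 and Cyp2c68. Cyp2d9 and Cyp2d34 rose from DSS mouse 1 to 3 as the Hox median did, and Cyp2d26 did not keep that order. In Cyp2d9 and Cyp2d34 mouse 2 was also the lowest of the control and of the control+L-Arg group. The Hox medians of DSS mice, −0.86 to −0.13, were above control mouse 2 (−1.03) and below control mice 1 and 3 (0.33 and 0.48). The median difference of the 9 genes from control was −0.66 in DSS+L-Arg and −0.58 in DSS mice, with 0 called by limma and 1 lower in each at an unadjusted p under 0.05. With the Hox median of each array as a covariate, an alternative chosen after the data were seen, the difference in DSS against control mice was −2.18 for Cyp2f2 (SE 0.37, limma adjusted p = 0.0090) and −1.68 for Cyp2c68 (SE 0.36, limma adjusted p = 0.024). Both were then called, along with Cyp2d22 (−1.34, limma adjusted p = 0.018) and Cyp4f13 (−0.60, limma adjusted p = 0.022), beside Cyp4f16, Cyp2r1 and Cyp7b1. Probe sets shared by Cyp2c67, Cyp2c68 and other Cyp2c genes exist on the array, so the single-gene probe set of Cyp2c68 may also take up RNA of its close relatives.

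Cyp3a25 and Cyp3a44 were arranged the other way. Cyp3a25 read 6.09, 8.03 and 7.59 in DSS+L-Arg mice, 8.18, 7.32 and 4.81 in DSS mice, 7.25, 8.56 and 6.80 in control+L-Arg mice, and 6.61, 8.01 and 7.24 in control mice. Mouse 2, the lowest of the control and control+L-Arg groups in posterior Hox genes, was the highest of both in Cyp3a25, and in the DSS group mouse 3, the highest in Hox genes, was the lowest. Cyp3a44 read 5.53, 6.88 and 6.24 in DSS+L-Arg mice, 7.27, 6.16 and 5.43 in DSS mice, 6.90, 7.64 and 5.51 in control+L-Arg mice, and 6.15, 7.44 and 6.92 in control mice. Both also have multi-gene probe sets on the array, and the share of related Cyp3a RNA in these signals is not known.

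Cyp4b1, an enzyme of fatty acids and furans found mostly outside the liver, read 7.66, 9.51 and 8.91 in DSS+L-Arg mice, 9.94, 9.96 and 6.93 in DSS mice, 10.47, 11.30 and 10.03 in control+L-Arg mice, and 10.90, 10.94 and 10.82 in control mice. The 6 mice given DSS lay below all 6 others. The difference was −2.19 in DSS+L-Arg (SE 0.72, limma adjusted p = 0.27) and −1.94 in DSS mice (SE 0.72, limma adjusted p = 0.16), each against control, and 1 mouse in each group, DSS+L-Arg mouse 1 and DSS mouse 3, was far below the rest. Without DSS mouse 3 the second of these was −0.93 (limma adjusted p = 0.30). Cyp2e1, which oxidizes ethanol and ketones, read 7.52, 6.61 and 6.71 in DSS+L-Arg mice, 5.86, 5.64 and 5.82 in DSS mice, 6.68, 8.27 and 7.62 in control+L-Arg mice, and 6.54, 8.57 and 5.84 in control mice. Control mouse 2 and control+L-Arg mouse 2 were the highest, and they were also highest in adipocyte markers (9 of 10 measured), at 0.74 and 1.05 above the control mean, where the other 10 mice lay between −0.70 and 0.17. The median log2 signal of those markers was 7.88 to 7.95 in DSS+L-Arg mice, 6.44 to 7.11 in DSS mice, 7.72 to 9.31 in control+L-Arg mice and 6.92 to 8.73 in control mice. Their part in the Cyp2e1 values was not tested.

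**Figure D4:**
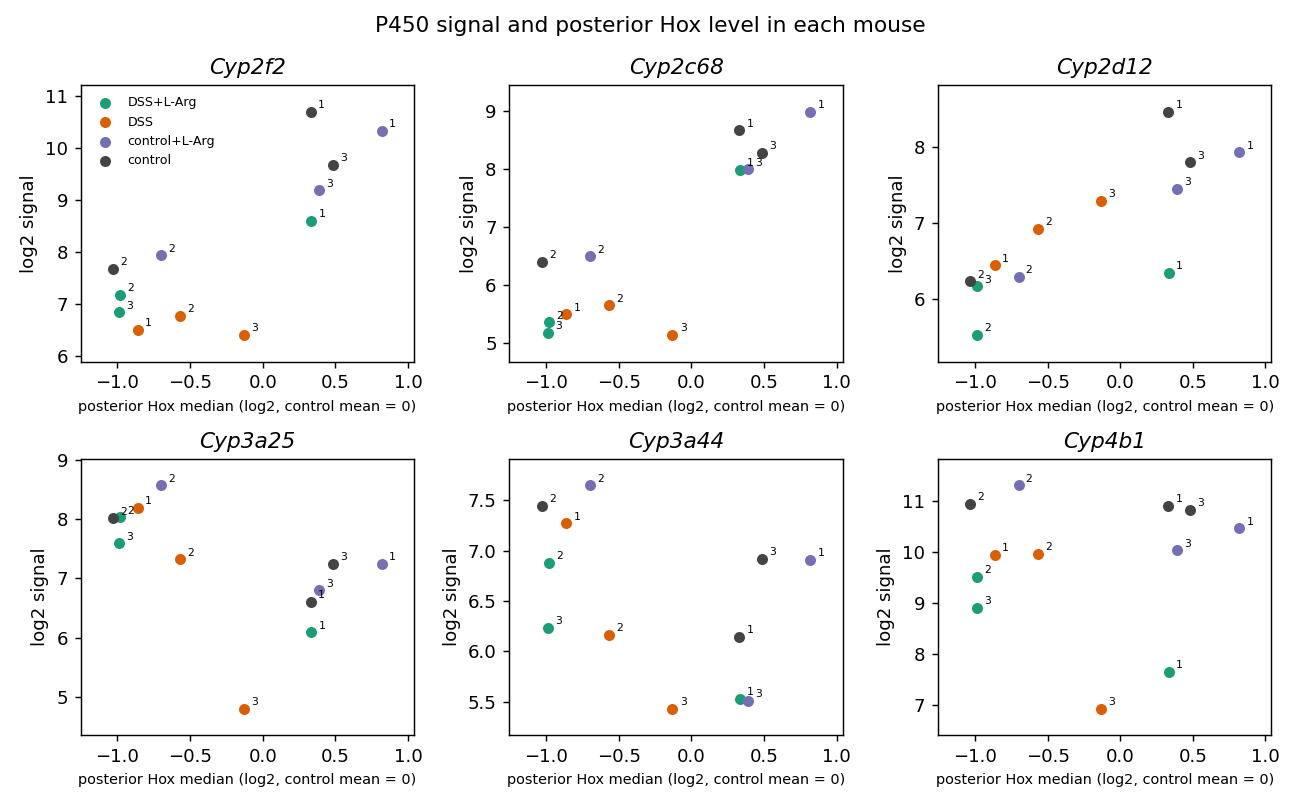
Log2 signal (y axis) of 6 P450 genes against the median of 9 posterior Hox genes relative to the control mean (x axis, log2), with 1 numbered point per mouse, coloured by group. Mouse 2 of the control and control+L-Arg groups lies at the left. Within both groups it is the lowest in Cyp2f2, Cyp2c68 and Cyp2d12 and the highest in Cyp3a25, Cyp3a44 and Cyp4b1. For Cyp4b1 the control mice are close (10.90, 10.94 and 10.82). DSS+L-Arg mice 2 and 3 also lie at the left, with Cyp4b1 at 9.51 and 8.91.

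What L-Arg changed after DSS was asked by setting DSS+L-Arg against DSS mice. No member was called by limma at an adjusted p under 0.05, where 0.115% of all genes were called higher and 0.522% lower, and the lowest adjusted p of a member was 0.096, for Cyp2c50 (0.37, SE 0.09), at the 6.24th percentile of all genes. At an unadjusted p under 0.05, 7 members were higher and 6 lower (8.54% and 7.32%, against 7.99% and 5.53% of all genes). By the limits of the study's methods Cyp2d9 was lower and 0 members were higher, where 0.843% of all genes were lower and 0.11% higher. Among the expressed members, 2 had every DSS+L-Arg mouse above every DSS mouse, Cyp2f2 and Cyp2w1, and 3 had every one below, Cyp2d9, Cyp2d26 and Cyp3a13. These are 9.09% and 13.6% of the 22, against 8.9% and 6.93% of all expressed genes.

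The larger of these differences were as follows. Cyp2d9 differed by −1.43 in DSS+L-Arg against DSS mice (SE 0.39, limma adjusted p = 0.15), with all 3 DSS+L-Arg values below those of DSS mice, and without DSS mouse 1 the difference was −1.91 (limma adjusted p = 0.016) and without DSS mouse 3 −0.94 (limma adjusted p = 0.18). For Cyp2d26 it was −0.92 (SE 0.25, limma adjusted p = 0.15), and for Cyp2d34 −0.64 (−0.96 to −0.32 leaving out single mice). Cyp2d22 lay the other way, with a mean of 10.37 in DSS+L-Arg and 10.05 in DSS mice. Cyp2f2 differed by 0.98, with the highest DSS value, 6.77, just under the lowest DSS+L-Arg value, 6.85. Cyp2w1, known in human from fetal colon and colon tumours, read 8.29, 8.06 and 8.36 in DSS+L-Arg mice, 7.98, 7.45 and 7.47 in DSS mice, 8.04, 8.02 and 8.12 in control+L-Arg mice, and 8.18, 7.93 and 7.83 in control mice. Its difference was 0.60 (SE 0.15, limma adjusted p = 0.11). Leaving out single mice, it ranged from 0.51 to 0.78 (limma adjusted p of 0.017 to 0.32), and it was called only without DSS mouse 1.

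Cyp3a13 read 11.26, 11.25 and 11.43 in DSS+L-Arg mice, below the 3 DSS mice given above and also below the 3 control mice. The difference from DSS mice was −0.63 (SE 0.15, limma adjusted p = 0.11). Leaving out single mice, it ranged from −0.78 to −0.54 (limma adjusted p of 0.043 to 0.31), and it was called only without DSS mouse 3. Cyp27a1 differed by −0.35 (SE 0.48), by −1.10 without DSS mouse 3 (limma adjusted p = 0.037), and by 0.19 without DSS mouse 2. Cyp4f18 differed by −0.90 (SE 0.34, limma adjusted p = 0.29), while the neutrophil marker list had 4 of 14 members called lower and 0 higher. For the 3 genes called in DSS against control mice, the differences in DSS+L-Arg against DSS mice were 0.15 (Cyp4f16, SE 0.11), 0.18 (Cyp2r1, SE 0.20) and −0.39 (Cyp7b1, SE 0.16). Each was toward control and none was called (limma adjusted p of 0.59, 0.71 and 0.31). Both comparisons use the same DSS mice, and these genes were picked by those values, so no result is drawn from the shared direction toward control. For Cyp2r1 that direction rested on DSS+L-Arg mouse 1, without which the difference was −0.036 (limma adjusted p = 0.94).

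**Figure D5:**
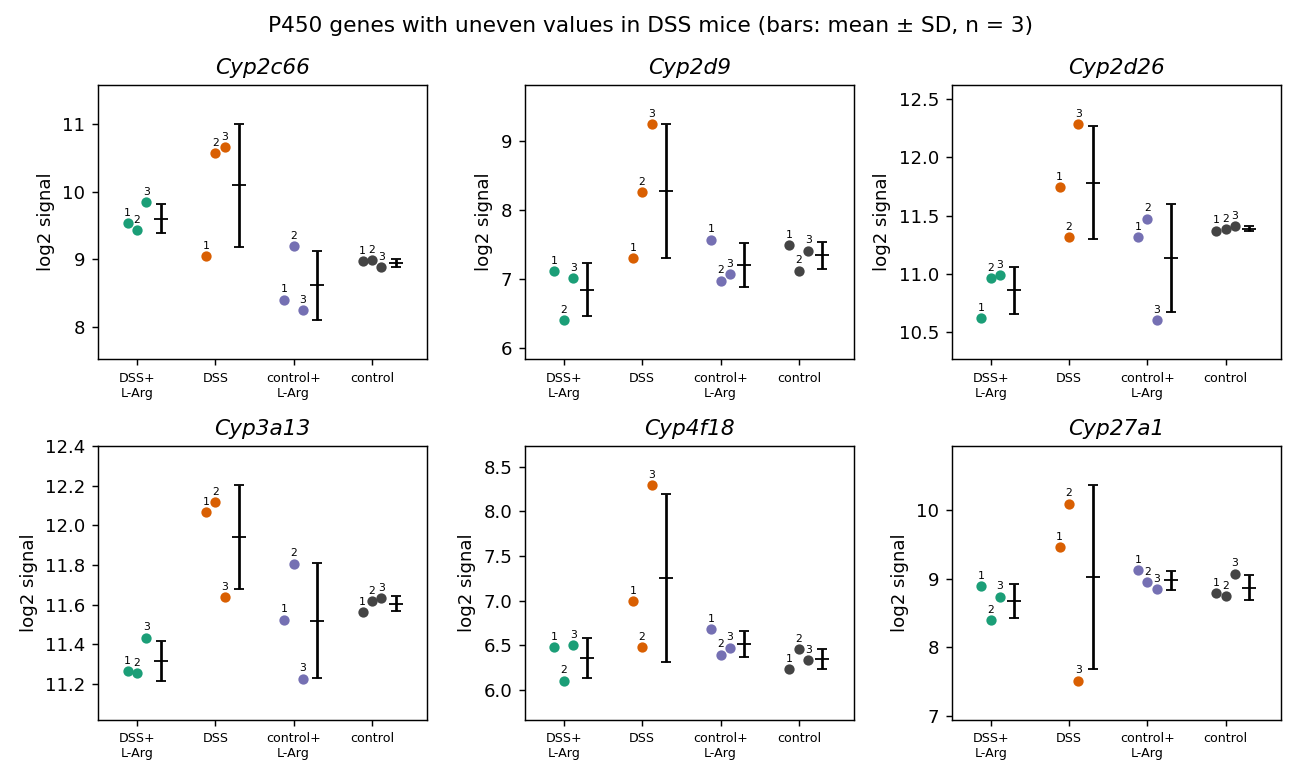
Log2 signal (y axis) of Cyp2c66, Cyp2d9, Cyp2d26, Cyp3a13, Cyp4f18 and Cyp27a1 in the DSS+L-Arg, DSS, control+L-Arg and control groups (x axis), with numbered mice and the mean ± SD of 3 mice. The DSS group has the widest SD in 5 of these 6 genes, and in Cyp3a13 the control+L-Arg group does. DSS mouse 1 stands apart in Cyp2c66. DSS mouse 3 stands apart in Cyp3a13, Cyp4f18 and Cyp27a1 and is the highest in Cyp2d9 and Cyp2d26. The genes were chosen for uneven values in DSS mice.

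Set against control mice, DSS+L-Arg mice had 1 member called lower, Cyp4f16, and 0 called higher, in a comparison in which 0.0351% and 0.0301% of all genes were called. At an unadjusted p under 0.05, 11 members were lower and 6 higher (13.4% and 7.32%, against 5.67% and 6.96% of all genes), and 0 passed the limits of the study's methods in either direction (0.251% lower and 0.196% higher of all genes). Among the 22 expressed members, 18 had a lower mean (81.8%, against 56.3% of expressed genes), with a median log2 fold change of −0.33 against −0.03 over all expressed genes. In 10 of the 22 every DSS+L-Arg mouse was below every control mouse, where 14.4% of expressed genes did so: Cyp2d9, Cyp2d10, Cyp2d26, Cyp2s1, Cyp3a13, Cyp4b1, Cyp4f13, Cyp4f14, Cyp4f16 and Cyp39a1. Only Cyp2c66 was above in every mouse, where 9.9% of expressed genes were. DSS+L-Arg and DSS mice were set against the same control mice here and above, so the 2 comparisons share those values.

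L-Arg given without DSS was examined in control+L-Arg against control mice. No member was called, nor was any gene (0% in each direction), and at an unadjusted limma p under 0.05 there were 1 higher and 1 lower member (1.22% each, against 1.33% and 2.11% of all genes). Of the 22 expressed members 16 had a lower mean (72.7%, against 65.9% of expressed genes), with a median log2 fold change of −0.19 against −0.05 over all expressed genes. The 1 member lower at an unadjusted limma p under 0.05 was Cyp4f16, which is expressed, at −0.29 (SE 0.11, limma adjusted p = 0.999). Every control+L-Arg mouse was above every control mouse in Cyp2c55 and below in Cyp4f16 among the 22, where 2.6% and 10.8% of expressed genes did so. In DSS+L-Arg against control+L-Arg mice 0 members were called, where 0.201% of genes were higher and 0.105% lower, and 8 members were higher and 5 lower at an unadjusted limma p under 0.05 (9.76% and 6.10%, against 8.95% and 6.6% of all genes). Of the 22 expressed members, Cyp2c66 was above in every mouse and 4 were below in every mouse, Cyp2c55, Cyp4b1, Cyp4f16 and Cyp39a1, where 15.4% and 11% of expressed genes did so. In 17 of the 22 the mean was lower (77.3%, against 45.4% of expressed genes), with a median log2 fold change of −0.23 against 0.03. The difference between the L-Arg effects with and without DSS was called for 0 members by limma (0.01% and 0.0652% of all genes), with a lowest adjusted p of 0.33, for Cyp2ab1, and at an unadjusted p under 0.05 for 6 members higher and 5 lower, against 6.62% and 4.19% of all genes.

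The genes that P450 enzymes work with were measured as lists, in which few genes were called. Of the listed redox partners and accessory proteins, 7 of 9 were measured (Cyb5a, Cyb5b, Cyb5r1, Cyb5r3, Fdx1, Pgrmc1 and Pgrmc2); P450 reductase, the main electron donor, and ferredoxin reductase were not analysed here. Of the 7, 0 were called in DSS against control mice, nor did any have an unadjusted limma p under 0.05. Of the nuclear and xenobiotic receptors that control P450 transcription, 18 of 19 were measured and 0 were called by limma, with 2 higher and 2 lower at an unadjusted p under 0.05. Of these receptors, the aryl hydrocarbon receptor Ahr differed by −0.07 (SE 0.07), the pregnane X receptor Nr1i2 by 0.17 (SE 0.14) and the vitamin D receptor Vdr by −0.06 (SE 0.10). In heme synthesis, which supplies the P450 cofactor, 9 of 10 were measured, and 2 fell in DSS mice, Uros (−0.63, SE 0.13, limma adjusted p = 0.020) and Urod (−0.41, SE 0.09, limma adjusted p = 0.032), which carry out consecutive steps. Uros read 7.13, 7.16 and 7.07 in DSS+L-Arg mice, 7.00, 6.49 and 6.82 in DSS mice, 7.40, 7.37 and 7.48 in control+L-Arg mice, and 7.41, 7.23 and 7.55 in control mice, with all 6 mice given DSS below the 6 others. Urod read 8.65, 8.74 and 8.62 in DSS+L-Arg mice, 8.74, 8.52 and 8.85 in DSS mice, 9.06, 9.09 and 9.03 in control+L-Arg mice, and 9.17, 9.08 and 9.10 in control mice, with the same separation.

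Epoxide hydrolases and conjugating enzymes, which take up the products of P450 reactions, had 11 of 13 measured. None was called by limma in DSS against control mice, with 5 lower and 0 higher at an unadjusted p under 0.05, where 11.6% of all genes were lower and 7.96% higher. In DSS+L-Arg against control+L-Arg mice 1 was called lower, the sulfotransferase Sult1c2 (−1.12, SE 0.19, limma adjusted p = 0.045), where 0.105% of all genes were. The medians of the 4 lists in DSS against control mice were −0.14 for redox partners, −0.09 for heme synthesis, −0.03 for receptors and −0.26 for this list, against −0.01 over all genes. In DSS+L-Arg against DSS mice, and in DSS+L-Arg against control mice, 0 genes of the 4 lists were called by limma. At an unadjusted limma p under 0.05 the redox partners then had 0 in either direction and comparison. The conjugating list had 1 of 11 lower in DSS+L-Arg against DSS mice and 4 lower in DSS+L-Arg against control mice, with 0 higher in both. Among all genes 5.53% and 5.67% were lower, and 7.99% and 6.96% higher. In the same order, heme synthesis had 1 higher and 1 lower, then 1 higher and 2 lower. Receptors had 1 higher and 0 lower, then 0 higher and 1 lower.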

How the data were processed

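Log2 signals were taken as deposited by the authors: Affymetrix Gene ST arrays, 1 per mouse, were normalized with RMA (background correction, quantile normalization, summary per probe set) in Affymetrix Expression Console 1.1, with mm9 named in the submitters' processing notes. Array medians were 6.49 to 6.64, and with 3 arrays per group their number limits the precision. Of 35556 probe sets, 21789 had 1 gene, 1621 several and 12146 none in the platform annotation; the brightest probe set of each of 19938 genes was kept. All 82 members had 1 probe set and an Entrez entry in the RefSeq table of GRCm38.p6, used for names, neighbours and promoters. Left out were 7 probe sets of several genes that include a P450 gene, and 5 symbols outside the naming rule. Cyp24a1 was not analysed here.

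Means of the 4 groups were fitted to all 12 arrays with limma 3.58.1 (R 4.3.3; lmFit, contrasts, eBayes; 8 residual and 3.37 prior degrees of freedom), with Benjamini-Hochberg adjustment over all genes and calls at an adjusted p under 0.05. Tables were made in Python 3.11.15 with pandas 2.3.3. The fit was tested on simulated data. The study's methods select by SAM p under 0.01 and fold change over 2; those limits on the limma p were an alternative. Labels call the mice biological replicates. Arrays of 1 group differed by over 0.01 in at least 95.1% of genes, so none was a copy.

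The members and lists were chosen with earlier results of these data known. Named were all members called in any comparison, the brightest of each subfamily with an expressed member, the 5 uncalled expressed members with the largest differences in DSS versus control and in DSS+L-Arg versus DSS, members known from colon or for their function, and up to 4 called genes of each pathway list. Cyp2c50, Cyp2c67, Cyp2c68, Cyp2d12, Cyp2d13, Cyp3a25, Cyp3a44, Cyp4f13, Cyp4f18 and Cyp4f40 were among those named after their values were seen, some of them beside the rule. Deviations of mice with the same number correlated over 0.1 in every pair only between control and control+L-Arg mice (r of 0.205, 0.477 and 0.261 across genes); a fit of these 2 groups with the number as a block called 0 members in either direction, as without it.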

Additional observations from a re-analysis of the deposited data

How the results depend on the processing

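The 49 fold changes named were recomputed under 1074 alternatives, of which 1028 kept direction and side of the threshold, 20 lost the call, 21 gained one and 5 turned. Leaving out single arrays, Cyp2r1 in DSS+L-Arg against DSS mice ranged from −0.036 to 0.37, with the negative value without DSS+L-Arg mouse 1. Cyp27a1 in DSS against control ranged from −0.38 to 0.91, negative without DSS mouse 1 (−0.068) or 2, and in DSS+L-Arg against DSS from −1.10 to 0.19, positive without DSS mouse 2. Cyp2c55 in DSS against control ranged from −0.17 to 0.0079, positive without DSS mouse 3. No turned value was called. For the counts of members, DSS against control had 1 higher, but 0 when only the groups compared were fitted, 0 at the study's limits and 0 to 3 leaving out single arrays. It also had 0 with genes above the 30th percentile in at least 3 arrays. That filter kept 41 of the 82 members and removed Cyp7b1 before testing, so this 0 is no test of its call. The 2 lower became 6 with the posterior Hox median and 1 with the smooth muscle median as a covariate, without Cyp2r1 (both added after seeing the data), and 1 to 5 leaving out arrays. Without DSS mouse 1 they were 5 (Cyp2d22, Cyp2r1, Cyp2s1, Cyp2w1 and Cyp4f16), and without control mouse 1 or 3 only Cyp4f16. DSS+L-Arg against DSS had 0 in each direction, but 1 lower at the study's limits (Cyp2d9), and 0 to 1 higher and 0 to 2 lower leaving out arrays. DSS+L-Arg against control+L-Arg had 0 lower, but 1 with a further quantile normalization, 2 with array weights and 0 to 1 leaving out arrays. The 1 lower in DSS+L-Arg against control (Cyp4f16) became 0 with median centring, 2 with array weights, 0 at the study's limits, and 0 to 1 leaving out arrays: it was lost without any single control, control+L-Arg or DSS+L-Arg array. With the mouse number as a replicate block, although the numbers did not pair the mice given DSS, DSS+L-Arg against control had 0 lower and DSS against control 1 higher and 3 lower, with Cyp2f2 added (adjusted p = 0.023); mean probe sets and the trended prior left all counts within 1.5 times. The causes were not tested. Expressed members numbered 37 with the limit at the 30th percentile. The difference of L-Arg effects could not be run on the compared groups alone.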
